A study of Mus musculus with 30 samples.

Results

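The enzymes that modify collagen inside the cell, trim it after secretion and crosslink it in the matrix were followed here through mammary carcinomas of Myc transgenic mice. Every probe annotated to 1 of 7 named genes was taken: P4ha1, P4ha2, Plod1, Plod2, Pcolce, Lox and Loxl1. Each gene had 1 probe, so no second probe could check it, and all 7 probes entered the tests, out of 10750 tested probes with 1 gene symbol and 16874 such probes on the array for 15096 genes. The labels give 15 RNA extracts, each hybridised on 2 arrays against 1 common reference RNA, named GES03-0001, with the channels exchanged. Extracts are named by a number and a letter: number 579 stands on 579-A, 579-B, 579-D, 579-E and 579-F, number 546 on 546-A and 546-B, and the others, 540-B, 547-A, 548-A, 550-A, 561-B, 567-B, 595-A and 597-B, carry 1 number each. Of the 30 arrays, 25 are described under epithelial to mesenchymal transition (EMT) and 5 under tumour progression. Both arrays of 550-A and of 561-B have the progression description, and 595-A has 1 array under each. The sources used here give no strain, age, transgene promoter or make-up of the reference. Nothing in the labels ties extracts to separate animals, so a p-value speaks of the spread among these extracts alone, part of which may be technical, and the reference is 1 RNA whose own spread is left out.

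Fibrillar collagen is made as a precursor chain in the endoplasmic reticulum, where prolyl 4-hydroxylases make the hydroxyproline that keeps the triple helix stable and lysyl hydroxylases modify lysines that later take part in crosslinks. Outside the cell the carboxy-terminal propeptide is cut off by Bmp1-type proteinases, helped by the procollagen C-proteinase enhancer, and lysyl oxidases then turn lysine side chains into the aldehydes from which crosslinks form. The hydroxylases need iron and ascorbate, the oxidases need copper, and several of these genes are known targets of hypoxia-inducible factors and of TGF-beta; in breast tissue, fibroblasts are a main source of collagen and of lysyl oxidase.

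The RefSeq promoter table of build GRCm38.p6 matched 4 of the 7 genes. The 250 bases before each of their starts are shown because the hypoxia-inducible factors are a known route to several of these genes, and capitals mark the cores of their binding motif, ACGTG and GCGTG, on either strand (CACGT and CACGC on the other). The P4ha1 window is chr10:59323046-59323295 on the plus strand, the P4ha2 window chr11:54100674-54100923 on the plus strand, the Plod1 window chr4:147936777-147937026 on the minus strand and the Pcolce window chr5:137611405-137611654 on the minus strand. Each lies directly upstream of its gene's annotated start and is written 5′ to 3′ on its gene's strand.
P4ha1: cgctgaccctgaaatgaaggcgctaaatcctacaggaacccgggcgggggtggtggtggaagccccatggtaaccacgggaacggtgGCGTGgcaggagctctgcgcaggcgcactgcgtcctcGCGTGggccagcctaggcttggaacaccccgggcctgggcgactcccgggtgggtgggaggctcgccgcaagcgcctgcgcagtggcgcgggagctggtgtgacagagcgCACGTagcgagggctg
P4ha2: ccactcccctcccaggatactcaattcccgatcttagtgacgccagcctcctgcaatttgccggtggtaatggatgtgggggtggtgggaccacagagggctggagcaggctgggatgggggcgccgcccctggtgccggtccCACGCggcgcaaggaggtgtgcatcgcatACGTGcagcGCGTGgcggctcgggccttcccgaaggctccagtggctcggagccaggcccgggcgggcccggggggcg
Plod1: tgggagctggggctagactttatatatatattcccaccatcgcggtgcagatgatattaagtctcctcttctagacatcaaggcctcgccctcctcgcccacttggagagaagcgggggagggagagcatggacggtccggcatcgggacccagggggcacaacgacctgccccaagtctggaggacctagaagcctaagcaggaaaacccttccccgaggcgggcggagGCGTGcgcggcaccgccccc
Pcolce: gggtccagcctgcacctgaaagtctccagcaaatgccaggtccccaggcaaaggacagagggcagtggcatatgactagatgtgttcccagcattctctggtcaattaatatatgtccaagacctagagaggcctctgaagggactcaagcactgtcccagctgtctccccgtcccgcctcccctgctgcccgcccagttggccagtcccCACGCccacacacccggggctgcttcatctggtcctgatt
Windows of both prolyl 4-hydroxylase genes held 1 ACGTG and 2 GCGTG. The Plod1 and Pcolce windows held 1 GCGTG each and no ACGTG. Of 32851 windows of the same length, 16.57% held ACGTG, 28.2% held GCGTG, 8.63% held at least 2 GCGTG and 38.6% held either. The overlapping motif CACGTG, the E-box to which Myc binds, was searched too; it was in none of the 4 windows and in 6.02% of all. These matches describe letters in a window and are not sites of binding.

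Values below are log2 ratios between extract and reference, 1 mean of the paired arrays per extract, with arrays that held the extract in channel 2 turned in sign. No absolute level enters, so the genes' abundances cannot be set against each other. Which channel was the numerator is not settled by the labels. Myc lay on one side in 15 of 15 extracts, at a mean of 3.16 ± 0.11 (SE) with a range of 2.38 to 3.68, and positive values are called the Myc side and negative ones the opposite side. Since these tumours carry a Myc transgene, that side is likely the extract over the reference, though this is not proof; if the ratio ran the other way, high and low would change places throughout. All 13 tested epithelial markers passed on the Myc side (median 2.90), led by Elf5, Cldn3 and Ehf. Under that direction the extracts held more epithelial marker RNA than the reference, which does not separate carcinoma from other epithelium. Arrays held 13434 to 21991 values, fewest in 548-A and 546-A, and array medians as deposited ran from -1.135 to 0.415. As deposited, the paired arrays of 1 extract correlated at a median r of -0.20 over tested probes (range -0.47 to 0.04), and arrays of different extracts in the same channel at 0.56, so a component tied to the channel was present, which cancels in the mean of paired arrays. Values at small whole-number ratios made up 21.9% of those of tested probes, and among the enzymes at most 6 of 30 arrays, for Plod1, and 5, for Loxl1. The number of arrays limits the precision of every value.

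Against the reference, 6 of the 7 enzymes differed, all on the opposite side. Lox stood farthest, at a mean of -3.45, followed by P4ha1 at -3.02, Pcolce at -2.37, P4ha2 at -2.15, Loxl1 at -1.19 and Plod2 at -0.99, while Plod1 was at 0.02 and did not pass. Over the whole array, limma called 47.2% of 12888 probes at an adjusted p under 0.05, with 16.9% on the opposite side and 30.4% on the side of Myc. The median of the 7 means was -2.15, beside 0.13 over all tested probes. Lox, P4ha1, Pcolce and P4ha2 were below 0 in all 15 extracts, which held for 4.05% of tested probes. Fewer cells of a type, less RNA per cell and more of the RNA in the reference, whose make-up is unknown, cannot be told apart.

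**Figure D1:**
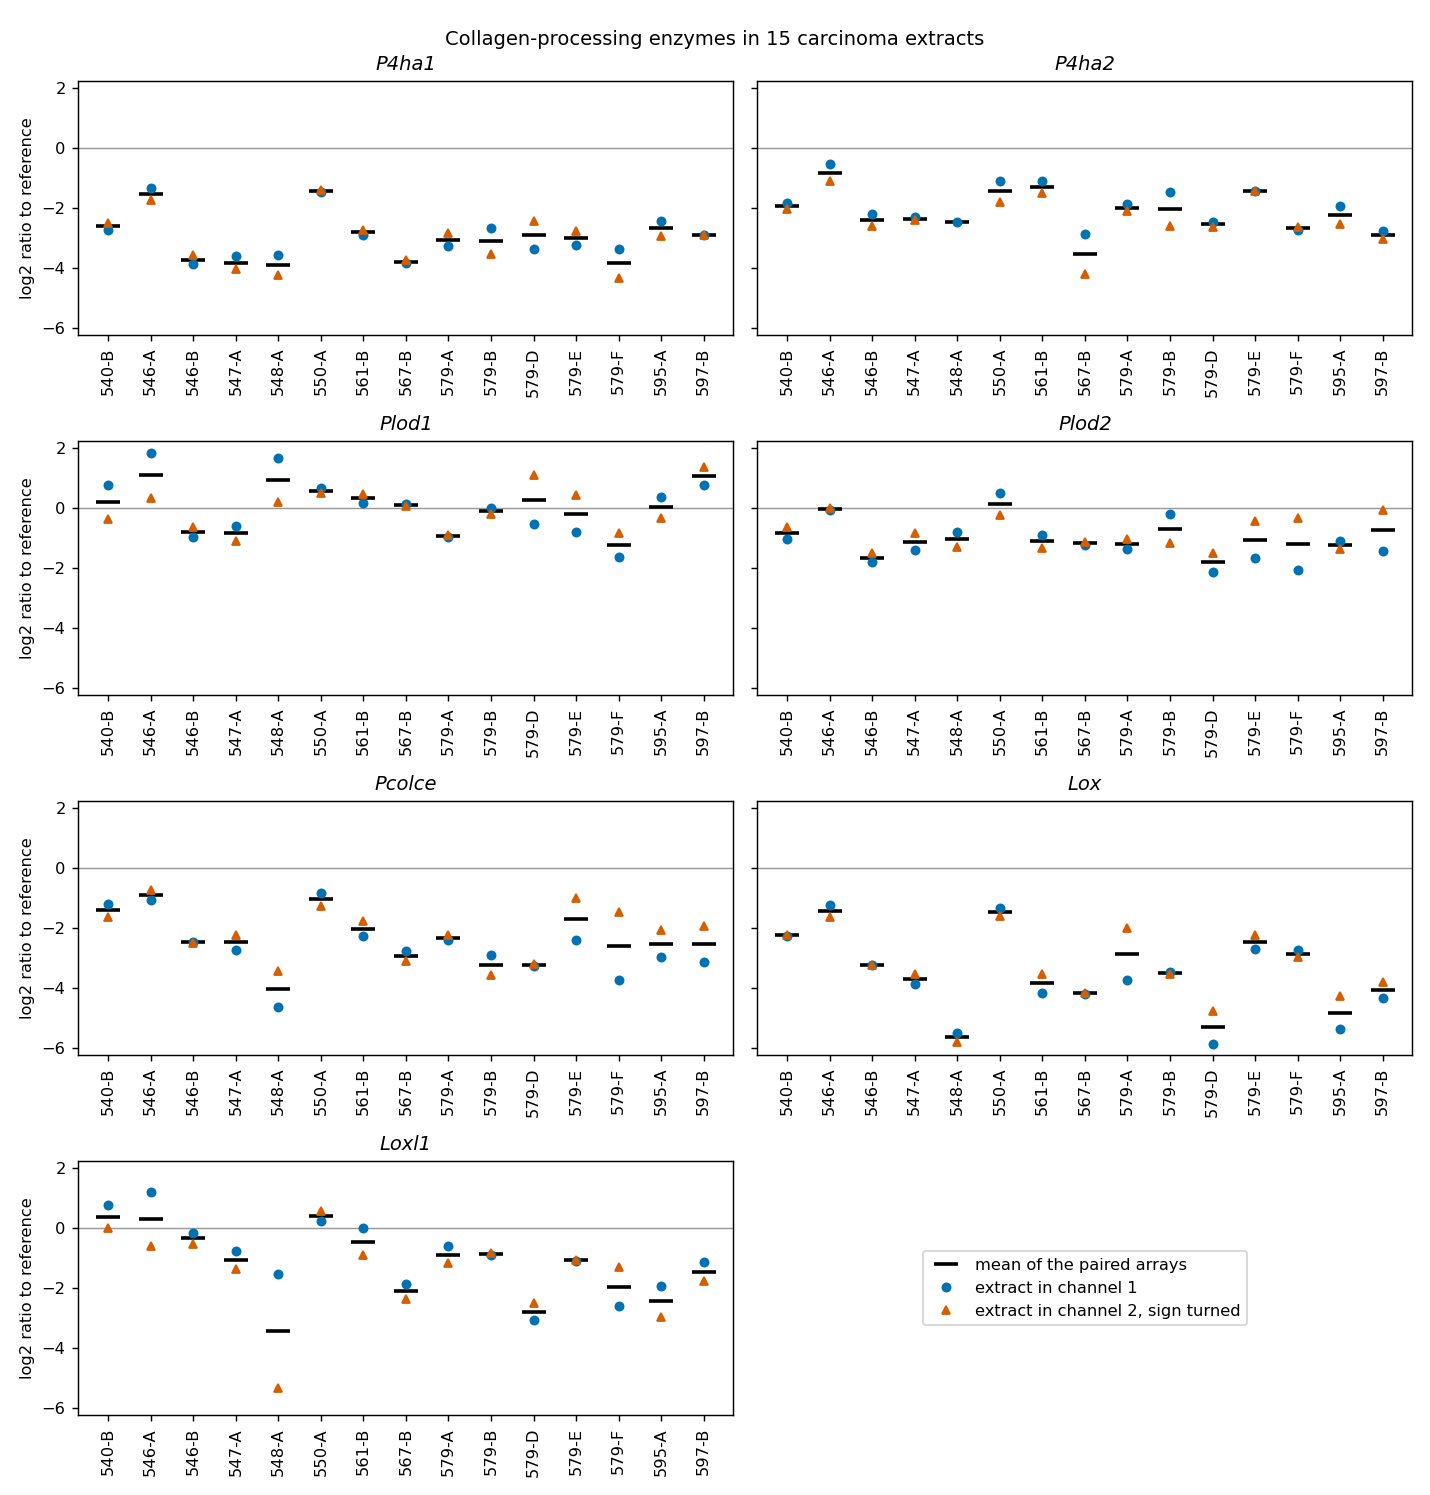
Log2 ratio to the common reference (vertical axis) in each of 15 extracts (horizontal axis) for the 7 enzymes; circles are arrays with the extract in channel 1, triangles arrays with it in channel 2 after turning, bars their mean. Lox, P4ha1, P4ha2 and Pcolce lie below 0 on every array, Plod1 straddles 0, and 546-A and 550-A stand high for most enzymes.

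The prolyl 4-hydroxylase alpha subunits carry the catalytic site of the enzyme. P4ha1 ran from -3.91 in 548-A through a median of -3.03 to -1.44 in 550-A. All 30 arrays were below 0, and 550-A and 546-A (-1.54) stood above the rest. Its mean of -3.02 ± 0.19 (SE, n = 15 extracts) is an 8.11-fold difference, with a 95% interval of -3.45 to -2.59 and a limma adjusted p = 1.38e-09. P4ha2 ran from -3.55 in 567-B through -2.25 to -0.84 in 546-A, and its mean of -2.15 ± 0.17 is a 4.44-fold difference (interval -2.53 to -1.77, limma adjusted p = 2.89e-08). It was below 0 on all 29 arrays that measured it; in 548-A it rests on 1 array. High values of P4ha2 were shared by 546-A, 561-B (-1.30) and 550-A (-1.45), while 561-B was at -2.83 for P4ha1.

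Lysyl hydroxylases gave a split pair. Plod2, which hydroxylates lysines in the telopeptides at the ends of the collagen chains, ran from -1.82 in 579-D through -1.12 to 0.12 in 550-A. Only 550-A was above 0, and 546-A lay at -0.03. The mean of -0.99 ± 0.13 is a 1.99-fold difference (interval -1.28 to -0.71, limma adjusted p = 1.07e-05). Plod1, which acts on lysines within the triple helix, ran from -1.24 in 579-F through 0.08 to 1.08 in 546-A, with 9 extracts above 0 and 6 below. Its mean of 0.02 ± 0.18 had a 95% interval of -0.38 to 0.43 (limma adjusted p = 0.932), so a difference from the reference of the size seen for Plod2 lies outside that interval. Its sign was negative after array medians were subtracted (-0.07) and on arrays with the extract in channel 2 (-0.0064).

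Pcolce encodes the enhancer that speeds removal of the C-propeptide. It ran from -4.04 in 548-A through -2.49 to -0.91 in 546-A and was below 0 on all 30 arrays. Extracts 550-A (-1.05) and 540-B (-1.42) were next highest, and 579-D (-3.25) and 579-B (-3.24) next lowest. The mean of -2.37 ± 0.21 is a 5.17-fold difference (interval -2.84 to -1.90, limma adjusted p = 8.22e-08).

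Lysyl oxidases showed the widest spread of the 7 genes. Lox, the main crosslinking oxidase of collagen and elastin, ran from -5.65 in 548-A through -3.51 to -1.45 in 546-A, all 30 arrays below 0. Its mean of -3.45 ± 0.30 is a 10.9-fold difference (interval -4.15 to -2.75, limma adjusted p = 8.06e-08), and its SD over extracts, 1.26, was larger than that of 91.1% of tested probes. It was low in 548-A, 579-D (-5.31) and 595-A (-4.83), and 550-A (-1.49) and 540-B (-2.25) were close to the highest. Loxl1, an oxidase best known for elastic fibres, ran from -3.43 in 548-A through -1.06 to 0.39 in 550-A. It was above 0 in 550-A, 540-B (0.38) and 546-A (0.31) and below 0 in the other 12. Its mean of -1.19 ± 0.28 is a 2.28-fold difference (interval -1.84 to -0.54, limma adjusted p = 0.00205). In 548-A its paired arrays read -1.54 and -5.32, the widest gap of any enzyme and extract, and without number 579 its adjusted p was 0.0485.

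Each of the 6 differences kept its side and its call in all other settings in which it was tested. P4ha1, for example, lay between -3.26 and -2.93 over 10 settings, and Lox between -3.76 and -3.30. The share of all calls that fell on the Myc side was 64.3%, 54.5% after array medians were subtracted, 41.3% with the extract in channel 1 only and 76.1% with it in channel 2 only.

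Between extracts, 5 of the 7 enzymes varied by more than the spread between paired arrays of 1 RNA, by limma's F-test with a dye term: Lox (adjusted p = 0.000134), P4ha2 (0.00621), P4ha1 (0.00731), Loxl1 (0.0388) and Pcolce (0.0492). Plod1 (0.18) and Plod2 (0.396) did not pass. Over all probes 6.73% were called. In the order of extracts, neighbours differed by less than the least difference between extract means at 95% for 6 of the 7 genes; that difference was 0.934 for Lox against a range of 4.20, and 1.75 against 3.82 for Loxl1, so steps between neighbours were hardly detectable. P4ha1 had 1 larger gap, between 546-A (-1.54) and 540-B (-2.62), where the least difference was 0.809. Without 546-A and 550-A, left out after it was seen that they stood apart for the enzymes, 1 of the 7 passed, Lox. Calls over all probes fell as well in that setting, from 867 to 405. Pcolce did not pass without 548-A alone (adjusted p = 0.136), and P4ha1 did not after array medians were subtracted (0.0824), where Plod1 passed (0.0483).

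Extract 546-A ranked among the highest 3 for 7 of the 7 genes, 550-A for 6 and 540-B for 4. At the low end, 548-A and 579-D ranked among the lowest 3 for 4 genes each, and 579-F and 595-A for 3 each. The share of all tested probes with these extracts among the highest or lowest 3 was not computed, so these ranks are not shown to be particular to the enzymes. After array medians were subtracted, 546-A had 7 genes among the highest 3 and 550-A 6, while at the low end 548-A, 546-B, 579-F and 595-A had 3 genes each and 579-D had 2. Extract 548-A was not low throughout: Plod1, was at 0.92 there, below only 546-A and 597-B. The thinnest extracts, 546-A and 548-A, thus lay at opposite ends, and without both the F-test called 3 of the 7 genes and 472 probes. Extract 546-A also had the highest mean of 9 of the 16 gene lists set beside the enzymes, among them fibrillar collagen chains (2.75), smooth muscle and pericyte markers (2.02) and skeletal muscle markers (3.47); the part of muscle tissue in its values was not tested.

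Pcolce, Lox and Loxl1 moved together over the extracts. Pearson's r over the 15 extracts was 0.88 for Pcolce with Lox (Spearman's rho 0.81), 0.87 for Lox with Loxl1 (rho 0.81) and 0.84 for Pcolce with Loxl1 (rho 0.80). Leaving out the 2 extracts farthest from the median of the first gene, 546-A and 548-A, gave 0.78, 0.80 and 0.74, and subtracting array medians gave 0.88, 0.87 and 0.83. Without 546-A and 550-A they were 0.79, 0.82 and 0.78. With each gene read from a different array of the extract, so that no array was shared, r was 0.83 and 0.71 for Pcolce with Lox, 0.80 and 0.66 for Lox with Loxl1 and 0.83 and 0.50 for Pcolce with Loxl1, the first value with the first gene in channel 1. The values over means describe 15 points that share arrays between genes and include 5 extracts of 1 number, and they carry no test.

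**Figure D2:**
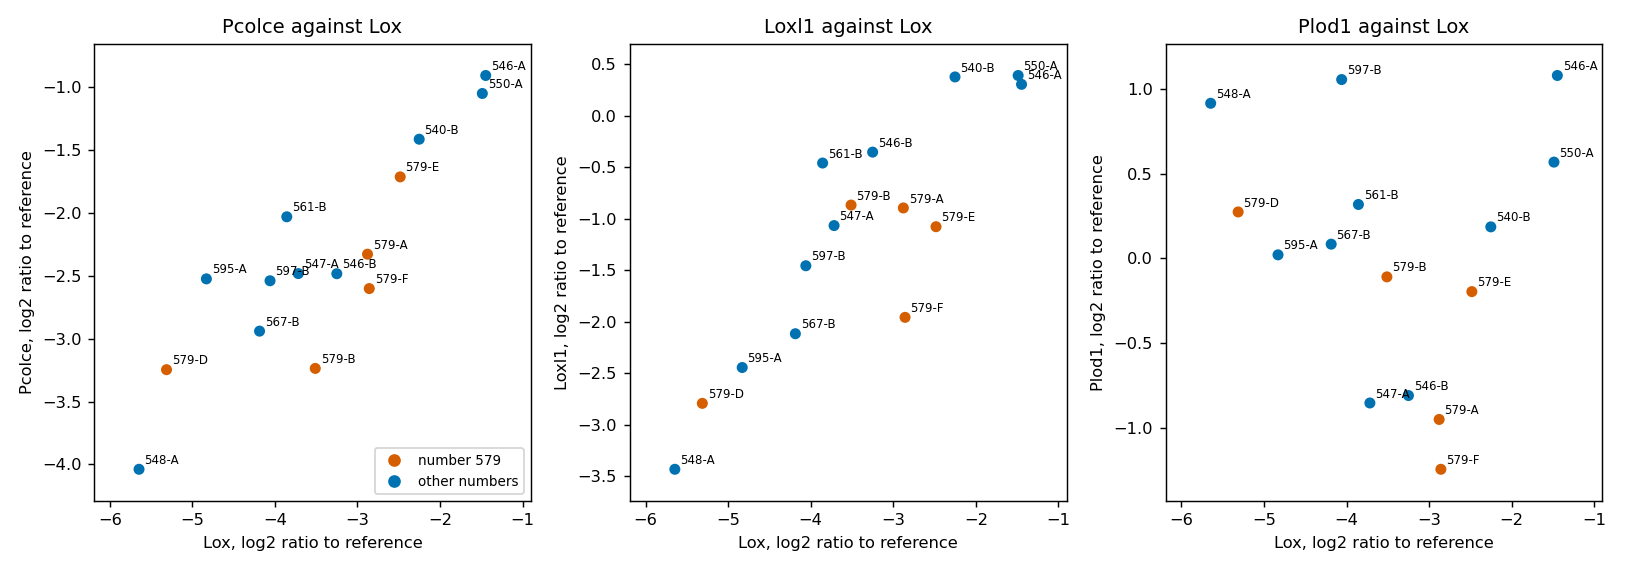
Pcolce, Loxl1 and Plod1 (vertical axes) against Lox (horizontal axis), log2 ratio to the reference, 1 point per extract, with number 579 in orange. Pcolce and Loxl1 climb with Lox from 548-A to 546-A (r 0.88 and 0.87), whereas Plod1 shows no common trend with Lox (r -0.10).

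Among the hydroxylases, P4ha1 correlated with P4ha2 at 0.71 (rho 0.64) and with Plod2 at 0.73 (rho 0.41), and without 546-A and 550-A, the 2 farthest extracts for P4ha1, at 0.51 and 0.20. P4ha2 correlated with Pcolce at 0.70 (rho 0.81), Loxl1 at 0.64 (rho 0.71) and Lox at 0.61 (rho 0.63), with 0.63, 0.58 and 0.52 without its 2 farthest extracts, 546-A and 567-B, and 0.51, 0.50 and 0.38 without 546-A and 550-A. P4ha1 with Lox went from 0.58 (rho 0.42) to 0.13 without 546-A and 550-A. Over the 15 pairs of enzymes that leave out Plod1, r ran from 0.54 to 0.88 with a median of 0.65, which was 0.61 after array medians were subtracted and 0.38 without 546-A and 550-A. Plod1 stood apart from the oxidases, at -0.10 with Lox and 0.00 with Loxl1 (rho -0.11 and 0.08), and was nearest to P4ha1 (r 0.54, rho 0.53) and Plod2 (0.52, rho 0.57). With no array shared between the genes, these were 0.29 and 0.38 for P4ha1 and 0.23 and 0.14 for Plod2. Leaving out 546-A and 550-A gave 0.36 and 0.32. The paired arrays of an extract correlated at 0.46 for Plod1 and 0.28 for Plod2, beside 0.90 for Lox, so part of this likeness may come from shared arrays.

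Among all other tested probes with 1 symbol and a value in every extract, the closest to Lox were Loxl2 (r 0.94 over 15 extracts), a further member of the lysyl oxidase family, Timp1 (0.94), an inhibitor of matrix metalloproteinases, and Plk3 (0.93), a stress-response kinase. Loxl1 was closest to Mmp14 (0.93), a membrane-bound collagenase, the proteoglycan gene Bgn (0.92) and Loxl3 (0.91). Pcolce was closest to Rcn3, a chaperone of the secretory pathway that aids collagen production (0.94), Reep3 (0.94) and the metalloproteinase gene Adam9 (0.93). At an r over 0.8 Lox had 143 probes, Loxl1 96, Pcolce 190 and the others 6 to 31, so the named genes are the nearest of many for the first 3. P4ha1 was closest to Vldlr (0.91), a lipoprotein receptor, Ecm1 (0.89) and Phlda3 (0.88), and P4ha2 to Arhgap1 (0.85), Wls (0.84) and Rai14 (0.83). Plod2 was closest to Dennd10 (0.88), Tubb6 (0.86) and the gelatinase gene Mmp9 (0.86). Plod1 was closest to Enah (0.87), an actin regulator, Elp6 (0.83) and Cystm1 (0.82). Without the 2 farthest extracts of each enzyme, Plod2 gave 0.80 with Dennd10, 0.57 with Tubb6 and 0.59 with Mmp9. In the same setting P4ha1 gave 0.77 with Vldlr, 0.67 with Ecm1 and 0.65 with Phlda3. The genes named for the other enzymes then lay between 0.71 (Plod1 with Elp6) and 0.93 (Lox with Timp1).

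Collagen chains lay on both sides. Of 17 tested chains 5 lay past the threshold with Myc, 4 opposite to it and 8 within it. Of all 9919 tested genes 48.4% passed, 33.5% with Myc and 14.9% opposite to it. Col3a1 stood at -1.73 ± 0.42, Col1a2 at -1.18 ± 0.33 and Col6a1 at -2.15 ± 0.34, whereas Col4a2 and Col4a1, chains of basement membrane collagen, stood at 1.92 ± 0.22 and 1.17 ± 0.22, Col12a1 at 1.23 ± 0.42 and Col2a1, a chain of cartilage collagen, at 1.49 ± 0.43. Of the 6 fibrillar chains, 2 passed on the opposite side and 1, Col2a1, with Myc (median -0.46), and Col5a1 (-0.63 ± 0.34), Col5a2 (-0.29 ± 0.32) and Col1a1 (-0.13 ± 0.35) did not pass. Between extracts 9 of the 17 passed the F-test, beside 7.21% of all genes. Of the 17, 15 were highest in 546-A and 11 lowest in 579-D, and the shares over all genes were not computed. Gene lists of other kinds shared these ends: of all 16 lists, 9 had their highest mean in 546-A and 10 their lowest in 579-D.

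**Figure D3:**
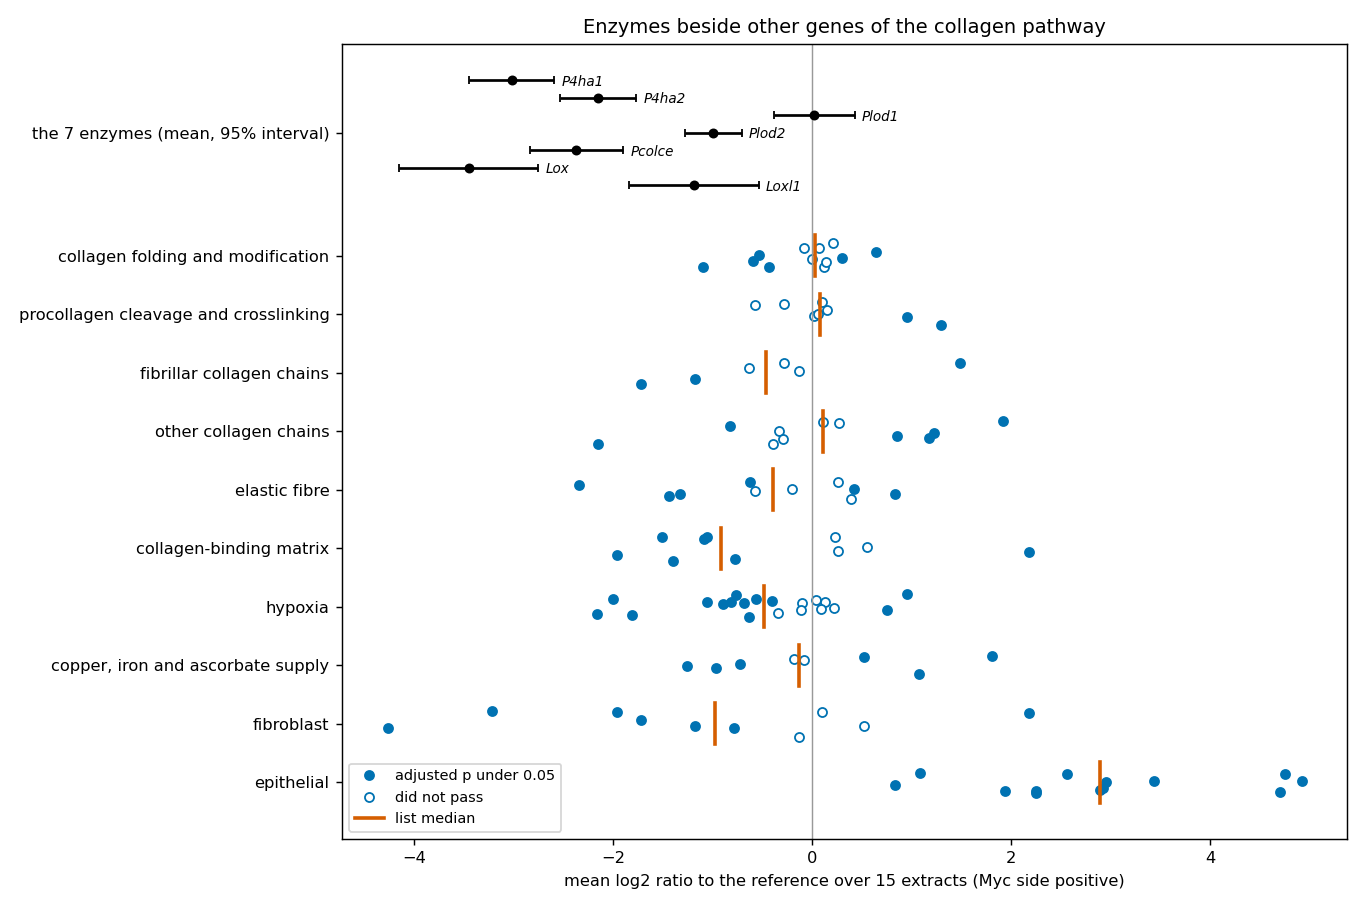
Mean log2 ratio to the reference over 15 extracts (horizontal axis) for the 7 enzymes, with 95% intervals, and for genes of 10 lists (circles, filled where limma's adjusted p was under 0.05; vertical placing within a list has no meaning), with list medians as bars. Lox, P4ha1, Pcolce and P4ha2 lie left of most collagen-pathway genes, and epithelial markers lie to the right of 0.

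Of 12 other genes of collagen folding and modification, 4 passed on the opposite side, 2 with Myc and 6 did not pass, with a median of 0.03. Serpinh1, the collagen chaperone, stood at -1.10 ± 0.23 and the prolyl 3-hydroxylase gene P3h3 at -0.59 ± 0.23, against Mia3, which helps export collagen from the endoplasmic reticulum, at 0.64 ± 0.19. P4hb, the partner of both P4ha subunits, was at 0.07 ± 0.13, and Plod3, the remaining lysyl hydroxylase, at -0.08 ± 0.10, and neither passed (limma adjusted p = 0.716 and 0.522). The subunits P4ha1 and P4ha2 thus lay well below the reference while the value of their partner lay near it. Only Hspa5, a chaperone of the endoplasmic reticulum, passed the F-test.

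Of 8 other genes of procollagen cleavage and crosslinking, 2 passed, both on the Myc side: Furin, a proprotein convertase, at 1.29 ± 0.13 and the transglutaminase gene Tgm2 at 0.96 ± 0.30. Bmp1, the C-proteinase that Pcolce enhances, was at 0.02 ± 0.29, Loxl2 at -0.28 ± 0.36 and Loxl3 at -0.58 ± 0.32, none of them past the threshold (limma adjusted p = 0.96, 0.553 and 0.159). Loxl2 ran from -2.76 to 2.75 over the extracts but did not pass the F-test (limma adjusted p = 0.34), and a second probe of it had a mean of -0.60. The median of the 8 was 0.08, and 0 of 8 passed the F-test.

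Elastic fibre genes, partners of Lox and Loxl1, gave 4 of 10 on the opposite side and 2 with Myc, with a median of -0.39. Fbln2 stood at -2.34 ± 0.42, Emilin1 at -1.44 ± 0.26 and Ltbp1 at -1.33 ± 0.22, while Eln, the elastin gene, stood at 0.84 ± 0.21. Of 10 collagen-binding matrix genes 6 passed on the opposite side, such as the proteoglycan genes Dcn (-1.96 ± 0.30) and Bgn (-1.40 ± 0.30), and 1 on the Myc side, Postn (2.18 ± 0.35), with 8 of 10 past the F-test. Fn1, at -1.51 ± 0.19, had the same sign on a second probe, at -2.68.

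Of 20 hypoxia genes 11 passed on the opposite side, 2 with Myc and 7 did not pass, with a median of -0.48. Bnip3 stood at -2.17 ± 0.24, Adm at -2.01 ± 0.27, Ero1a at -1.81 ± 0.13 and Pgk1 at -1.06 ± 0.13. The 2 with Myc were Epas1 at 0.96 ± 0.19 and Pfkfb3 at 0.76 ± 0.13. The glucose transporter gene Slc2a1 (0.04 ± 0.21) and Vegfa (-0.34 ± 0.19) did not pass. This list also held genes of the hypoxia-inducible factors themselves, Epas1 and Hif1a (-0.76 ± 0.15). Its mean is therefore not a measure of the response to hypoxia alone. The mean of the list correlated over the 15 extracts with Plod2 at 0.56, P4ha1 at 0.54, P4ha2 at 0.53, Pcolce at 0.51, Lox at 0.40, Loxl1 at 0.38 and Plod1 at 0.13 (rho 0.48, 0.60, 0.54, 0.53, 0.27, 0.31 and 0.34). Without the 2 extracts farthest for each gene these were, in the same order, 0.39, 0.35, 0.45, 0.31, 0.17, 0.03 and 0.22, and after array medians were subtracted 0.69, 0.63, 0.53, 0.44, 0.38, 0.29 and 0.33.

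Genes that supply metals and ascorbate went both ways, 3 of 8 on each side (median -0.13). Tfrc, the transferrin receptor that takes up iron, stood at 1.81 ± 0.16, and Fth1, which stores iron, at -1.26 ± 0.14. Atox1, a copper chaperone, stood at 1.07 ± 0.09 and the copper importer gene Slc31a1 at 0.52 ± 0.12. Atp7a, the pump that loads copper into lysyl oxidase, was at -0.18 ± 0.10 and did not pass (limma adjusted p = 0.154). Of 8 genes listed for TGF-beta, Smad3 (-0.78 ± 0.10) passed on the opposite side and Tgfb3 (0.51 ± 0.11) on the Myc side, with a median of 0.08. This list held the ligand genes Tgfb1, Tgfb2 and Tgfb3, the receptor genes Tgfbr1 and Tgfbr2, and Smad3, Ccn2 and Skil. Its mean is therefore not a measure of the response to TGF-beta alone. Only Ccn2, highest in 550-A, passed the F-test (limma adjusted p = 9.97e-05). The mean of that list correlated over the 15 extracts with Plod2 at 0.82 (rho 0.39), Pcolce at 0.77 (rho 0.72), P4ha1 at 0.74 (rho 0.66), Loxl1 and Lox at 0.72 (rho 0.68 and 0.51), P4ha2 at 0.60 (rho 0.64) and Plod1 at 0.39 (rho 0.38). Without the 2 farthest extracts of each gene these were, in the same order, 0.46, 0.83, 0.27, 0.73, 0.71, 0.60 and 0.36. Leaving out 546-A and 550-A for every gene gave 0.46, 0.55, 0.27, 0.59, 0.46, 0.32 and 0.10.

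As a list, fibroblast markers were closest to Pcolce, Lox and Loxl1 among the enzymes. Of 10 tested, 6 passed on the opposite side, among them Vim at -3.22 ± 0.22, 1 with Myc, Postn, and 3 did not pass (Pdgfrb 0.10, Fap 0.52, Col1a1 -0.13), with a median of -0.98. S100a4 stood at -4.27 ± 0.20 on one probe and -0.74 on another. Fap ran against the order of Pcolce, Lox and Loxl1 at the ends, highest in 548-A (1.81) and lowest in 546-A (-2.55). It did not pass the F-test (limma adjusted p = 0.0745), and no other marker of the list was highest in 548-A or lowest in 546-A. The mean of the list ran from -2.73 in 579-D to 0.44 in 550-A, with 540-B (0.28) and 546-A (0.22) next highest and 595-A (-2.08) next lowest. It correlated with Lox at 0.89, Loxl1 at 0.86 and Pcolce at 0.84 over the 15 extracts (rho 0.86, 0.83 and 0.85), and at 0.83, 0.80 and 0.74 without 546-A and 550-A. Corresponding values were 0.63 for P4ha2, 0.64 for Plod2, 0.52 for P4ha1 and 0.05 for Plod1, and without these extracts 0.44, 0.30, 0.06 and -0.31. Smooth muscle and pericyte markers, of which 3 of 7 passed with Myc and 2 opposite to it, had list means from -1.10 in 579-D to 2.02 in 546-A. They correlated with Pcolce at 0.85 (rho 0.91), Loxl1 at 0.78, Lox at 0.73, P4ha1 at 0.67, P4ha2 at 0.65, Plod2 at 0.64 and Plod1 at 0.23, and without 546-A and 550-A at 0.79, 0.76, 0.58, 0.35, 0.38, 0.28 and -0.19. The part of fibroblast, smooth muscle or pericyte content in the enzymes' values was not tested.

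**Figure D4:**
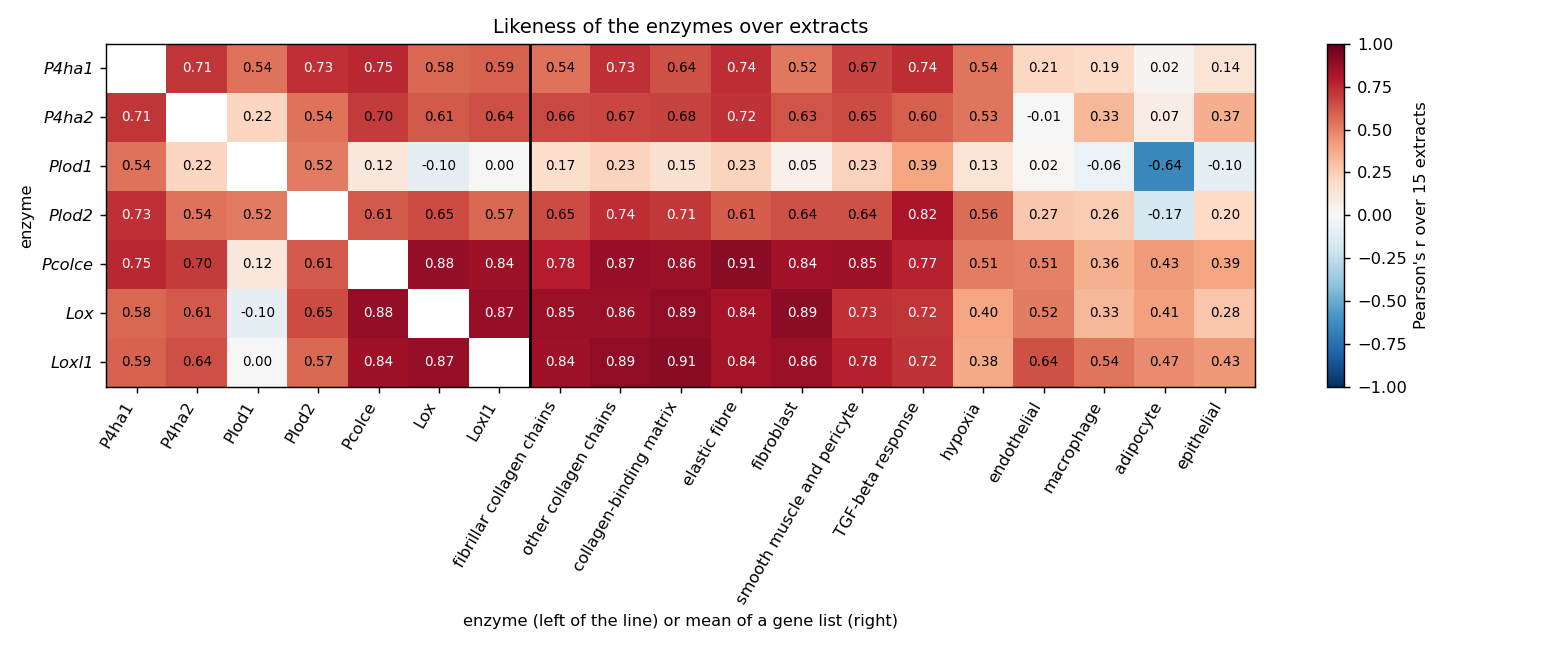
Pearson's r over 15 extracts between each enzyme (vertical axis) and the other enzymes or the mean of a gene list (horizontal axis), from -1 in blue to 1 in red. Pcolce, Lox and Loxl1 reach 0.78 to 0.91 with the 4 matrix lists and the fibroblast list, P4ha1, P4ha2 and Plod2 reach 0.52 to 0.74, and Plod1 reaches 0.05 to 0.23.

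Across the 5 lists of collagen chains, other matrix and fibroblast markers, which share genes (5 of the 10 fibroblast markers are in a matrix list), r ran from 0.78 to 0.91 for Pcolce, Lox and Loxl1, and from 0.76 to 0.91 without the 2 farthest extracts of each gene. For P4ha1, P4ha2 and Plod2 the range was 0.52 to 0.74, and 0.04 to 0.73 without them. Plod1 gave 0.05 to 0.23. Leaving out 546-A and 550-A gave ranges of 0.63 to 0.90, 0.04 to 0.58 and -0.31 to -0.07, in the same order. Epithelial markers were less alike to every enzyme, at -0.10 (Plod1) to 0.43 (Loxl1), and their list mean ran from 2.09 in 579-D to 3.53 in 546-A. Endothelial markers, 5 of 5 on the Myc side, correlated with Loxl1 at 0.64, Lox at 0.52 and Pcolce at 0.51. These were 0.71, 0.62 and 0.62 without 546-A and 550-A, and 0.36, 0.45 and 0.42 without the 2 farthest extracts of each gene. Adipocyte markers, 4 tested with 1 on the Myc side, correlated with Plod1 at -0.64 (rho -0.77; -0.67 without the 2 farthest extracts). With Pcolce, Lox and Loxl1 they gave 0.43, 0.41 and 0.47. Those values rose to 0.74, 0.70 and 0.68 without 546-A and 550-A, and fell to 0.09, 0.18 and -0.22 without the 2 farthest extracts of each gene. Macrophage markers, 5 of 8 past the threshold with Myc and 2 opposite to it, reached 0.54 with Loxl1. That value was 0.56 without 546-A and 550-A and 0.33 without the 2 farthest extracts.

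Number 579 was set against the other numbers, since it is the only number on more than 2 extracts. No enzyme differed, and limma called 0 of 12888 probes, or 0%, with 460 probes at an unadjusted p under 0.05. Plod1 read -0.95, -0.11, 0.27, -0.20 and -1.24 in 579-A, 579-B, 579-D, 579-E and 579-F, against -0.85 to 1.08 (median 0.25) in the other 10 extracts. The groups overlapped, and the difference was -0.70 ± 0.36 (SE; limma adjusted p = 1.00, unadjusted 0.0664). It was -1.26 with the extract in channel 1 only and -0.14 in channel 2 only. Lox read -2.88, -3.51, -5.31, -2.48 and -2.86 in the same order, so its extracts of number 579 spanned most of the range of the series, and the difference was 0.06 ± 0.66. Differences of the remaining 5 lay between -0.49 ± 0.60 for Loxl1 and -0.0006 ± 0.38 for P4ha2. With SEs of 0.28 to 0.66 and adjustment over 12888 probes, even differences larger than the SE could go undetected. The Plod1 difference was larger than its SE, but the test does not show that a difference exists.

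The progression description was set against the EMT description, 2 extracts against 12. Again no enzyme passed; limma called 1 of 12888 probes, or 0.00776%, and 525 had an unadjusted p under 0.05. P4ha1 read -1.44 in 550-A and -2.83 in 561-B, against -3.91 to -1.54 (median -3.09) in the 12, a difference of 1.06 ± 0.53 (SE; limma adjusted p = 1, unadjusted 0.0615). Loxl1 read 0.39 and -0.46, against -3.43 to 0.38 (median -1.07), a difference of 1.24 ± 0.78. All 7 differences were above 0, from 0.49 ± 0.56 for Plod1 to 1.24 for Loxl1, and in none did the groups lie apart. The shares of all tested probes above 0 and with groups apart were not computed. Most of the enzymes correlated over the extracts, so the 7 signs are not separate results. Without 550-A, 561-B alone differed by 0.97 for P4ha2, 0.82 for Loxl1, 0.46 for Pcolce, 0.37 for P4ha1, 0.36 for Plod1, -0.07 for Plod2 and -0.39 for Lox.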

How the data were processed

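Per the labels, each array compared 1 carcinoma extract with the common reference in 2 channels. The authors deposited log2 ratios for 22800 probes; the log scale is inferred from their range, and scanner, background correction, normalization and direction are given by none of the sources used here. Centring between arrays is absent. The value 16.61, found 8839 times, was taken as a placeholder and left out with 95268 blank cells. Of measured values of tested probes, 21.9% were small whole-number ratios: rounded to 3 decimals they matched log2 of a quotient with integers of at most 20 above and below; the cause was not tested. Arrays with the extract in channel 2 were turned, and the 2 arrays of an extract were averaged to 1 value.

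Probes with values on at least 24 of 30 arrays and at least 1 array of every extract were tested (12888 probes), with limma 3.58.1 in R 4.3.3 (lmFit and eBayes, Benjamini-Hochberg adjustment over all of them, two-sided): extract means against 0, number 579 against other numbers, and progression against EMT with 595-A left out. Differences between extracts used limma's F-test on the 30 arrays with a dye term, so its error is technical; for probes with missing arrays it is approximate. SDs, correlations and 95% intervals (t distribution) use the 15 means. The procedure was tested on simulated data. Genes were named from the array annotation, and 16196 of 16874 probes with 1 symbol matched the RefSeq gene table. Named beside the 7 enzymes were, from each gene list, at most the 4 genes farthest from the reference among those past the threshold and the 3 of largest SD past the F-test, the 3 probes most like each enzyme, and known partners (P4hb, Plod3, Bmp1, Loxl2, Loxl3, Col1a1, Col5a1, Col5a2, Slc2a1, Vegfa, Atp7a, Slc31a1, Pdgfrb, Fap), which were chosen after their values were seen. Epas1, Pfkfb3 and Hif1a of the hypoxia list were also named after their values were seen. The members and lists were chosen with earlier results of these data known. Alternatives were array medians subtracted, other filters, single orientations, extracts or numbers left out or averaged, and no dye term.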

Additional observations from a re-analysis of the deposited data

Results flagged for a closer look

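P4ha1 in 579-F, at -3.86, lay apart from the other 4 extracts of number 579, the nearest of which was at -3.12; the gap was 0.785 of the range of the 5. Its paired arrays read -3.39 and -4.34. This was the single such value among 14 groups of values tested, and chance gives about 1 in 20 groups.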

How the results depend on the processing

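Lox, P4ha1, Pcolce, P4ha2, Loxl1 and Plod2 kept their side and call against the reference in every setting in which they were tested. Probes called there numbered 4047 of 6801 with values on all 30 arrays. Plod1 changed sign, to -0.072 after array medians were subtracted, -0.13 without 546-A and 548-A, -0.0064 with the extract in channel 2 only and -0.10 without 546-A and 550-A, a setting added after seeing the data. Between extracts, calls were 472 (3 enzymes) without 546-A and 548-A, 393 (2) with no dye term, and 405 (1) without 546-A and 550-A; Lox passed in all 8 settings (limma adjusted p from 2.80e-05 to 0.00383). Elsewhere Pcolce reached 0.0519 with values on at least 15 arrays, and with no dye term the adjusted p was 0.0769 for P4ha2, 0.127 for Loxl1 and 0.169 for Pcolce.

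For number 579 minus the others, P4ha1 was 0.094 without 546-A and 550-A. P4ha2 was 0.093 after array medians, 0.12 without 546-A and 548-A, 0.076 in channel 2 only, 0.058 with the 546 extracts averaged, 0.25 without 546-A and 550-A, and -0.17 (without 579-E) to 0.13 (without 579-F) on leaving out 1 extract of number 579. Lox was -0.15 in channel 1 only and -0.17 (without 579-E) to 0.54 (without 579-D) on leaving out 1, and Loxl1 was 0.15 in channel 2 only. For progression minus EMT, calls were 0 after array medians, with all 30 arrays, without 546-A and 548-A and in either single channel, 3 without 550-A and 4 without 561-B; Plod2 was -0.067 and Lox -0.39 without 550-A, and 1.17 and 1.98 without 561-B, where the lone extract is assumed to vary like the others. The cause of these changes was not tested. The group comparisons could not be paired, since each extract compared lies in 1 group only.

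Limits: ratios to 1 reference of unknown make-up have no settled direction. Each enzyme rests on 1 probe, the labels tie no extract to an animal, and channel intensities, and so signal over background, were not analysed here.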
